A study of Mus musculus with 6 samples.

Results

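Collagens, laminins and the glycoproteins that assemble with them were compared between alpha-6+CD34+ and alpha-6+CD34- keratinocytes of mouse skin. A member was any gene of a list of 45 matrix genes for which a probe that is not a control names the gene by accession or description. All 45 had a probe, 49 probes in all, among 20868 probes on the array. They were described in 3 groups, with 11 interstitial collagens, 16 basement membrane genes, and 18 fibulins, proteoglycans and other glycoproteins. Both populations came from mice 7 weeks old, whose skin had been digested for 2 hours in trypsin before the epidermal cells were scraped off, stained and sorted. Both carried the alpha-6 integrin, and no drug or transgene is named for either. The labels call CD34+ cells stem and progenitor cells and CD34- cells basal cells; strain, sex and the number of animals pooled are not given in the sources used here. Each of 3 biological replicates was read on 2 arrays, once in each dye orientation, so that n = 3 in every value. The question was which genes set the CD34+ cells apart.

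Matrix genes encode what lies outside the cell. Interstitial collagens form the fibrils and filaments of the dermis, while type IV collagen, laminins, nidogens and perlecan form the sheet on which basal keratinocytes sit. Fibulins, small proteoglycans and crosslinking enzymes tie these networks together. In skin, dermal fibroblasts make most of the interstitial collagen, and keratinocytes contribute to the basement membrane. CD34 is a known marker of bulge stem cells in the mouse hair follicle.

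Each value is the log2 of the CD34+ signal over the CD34- signal, given for replicates 1, 2 and 3 and then as mean ± SD. The test was limma's moderated test with Benjamini-Hochberg adjustment over 20068 features, that is genes or unnamed probes, and an adjusted p under 0.05 counted as passing. On the 6 arrays, 93.0% to 97.7% of probes were marked as well above background in either population, and the number of arrays limits the precision. Across arrays, the log2 ratios correlated with r between 0.51 and 0.91 over probes. As a check of the sort, Cd34 was at 5.83, 6.27 and 5.42 (5.84 ± 0.43, adjusted p 0.00362), and Itga6, the integrin used to gate both populations, at -0.87, -1.34 and -1.33 (-1.18 ± 0.27, adjusted p 0.0179). In a mixed sample, a difference in the share of cells of a type cannot be told apart from a difference in RNA per cell.

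Of the 45 members, 44 could be tested, 16 were higher in CD34+ cells, 3 were lower and 25 did not pass. Among all features, 12.1% passed in either direction, 5.42% as higher and 6.64% as lower. The matching shares of the tested members were 43.2%, 36.4% and 6.82%. The rising members thus lay above the background, and the falling ones near it. The median log2 ratio of the 44 members was 0.08, against 0.0042 for all features. All 19 members that passed had the same sign on all 6 arrays and were well above background on all 6 arrays in both populations. Of the 25 that did not pass, 23 were also well above background on all 6 arrays in both populations. Dpt, which encodes dermatopontin, was well above background on 1 array in each population and was the member not tested.

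These counts depend on the replicates. Without replicate 1, 0 members and 0 of all features passed, although 22 members and 4641 features had an unadjusted p under 0.05 in limma and all 19 members kept their sign. Without replicate 2, 4 members passed as higher and 2 as lower; without replicate 3, 17 and 5. A fit of unpaired channels, with no replicate block, passed 5 as higher and 2 as lower. The 6 that held without replicate 2 were Col1a2, Col6a2, Col18a1, Fbln1, Col16a1 and Efemp1. The 7 that held with unpaired channels were Col6a1, Col6a2, Col7a1, Col18a1, Efemp2, Col16a1 and Efemp1. In each of these settings all 19 members kept their direction. This outcome was fixed in advance, because each of the 19 had the same sign on all 6 arrays. Of the 19, 17 had their smallest difference in replicate 3, and no matching count over all features that passed is given. Without replicate 3, 4230 features passed, against 2420 with it, so the effect of this replicate was not confined to the members. Its arrays were read with an older version of the scanner software, and replicate and version cannot be told apart.

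**Figure D1:**
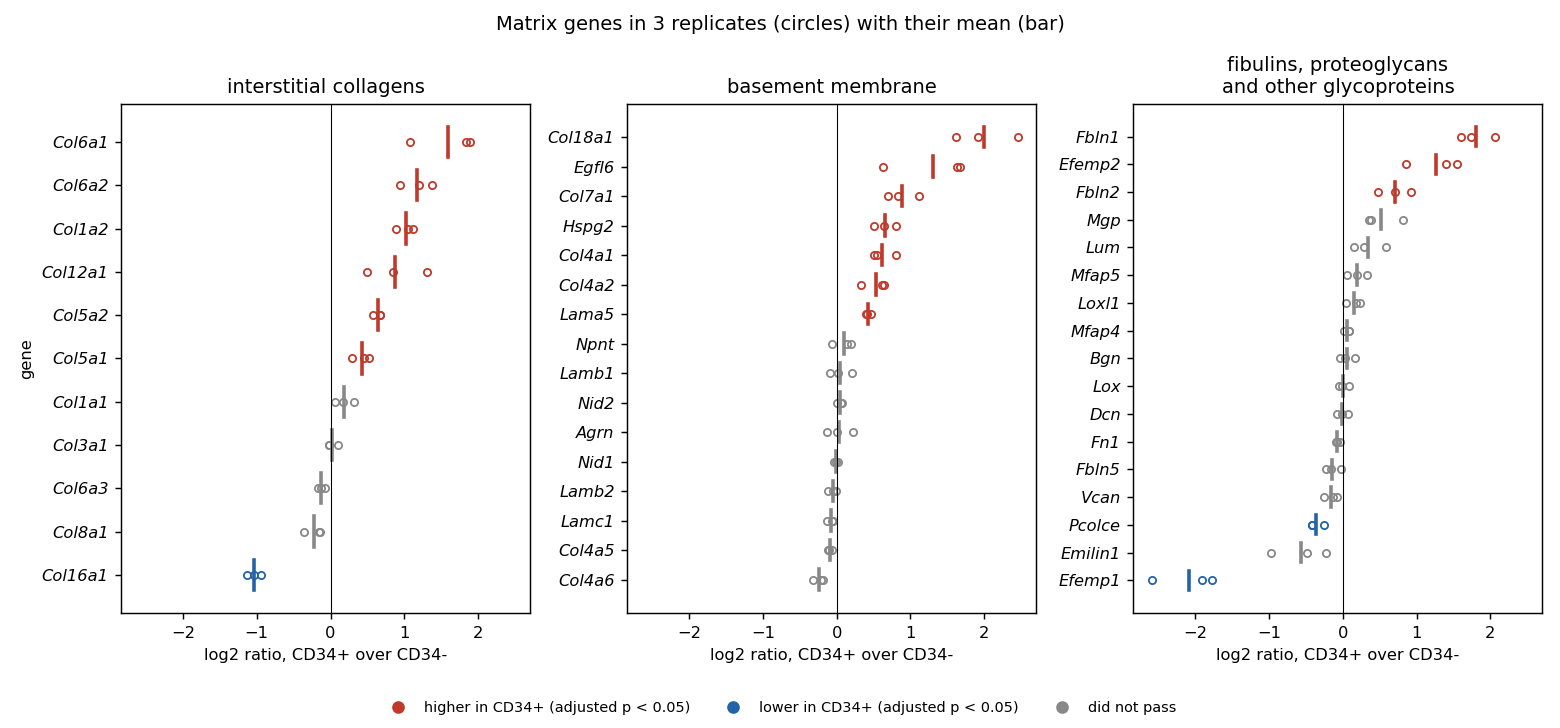
Log2 ratio of CD34+ over CD34- cells (horizontal axis) for the 44 tested matrix genes in 3 groups, with a circle per replicate and a bar at the mean. The 3 replicates of each coloured gene, which passed the test, lie on 1 side of 0, and most grey genes lie close to 0.

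Interstitial collagens had the highest share of rising genes of the 3 groups, with 6 of 11 higher (54.5%), 1 lower (9.09%) and 4 that did not pass. Among all features 5.42% rose and 6.64% fell, so the rises lay above the background and the 1 fall near it. The median log2 ratio of the group was 0.42, with replicate medians of 0.52, 0.45 and 0.30. The rising genes were Col6a1 and Col6a2 of type VI collagen, Col5a1 and Col5a2 of type V, Col1a2 of type I and Col12a1 of type XII. The median of 0.0042 over all features is the value to set beside these.

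Type VI collagen, which forms beaded filaments around cells and fibrils, is built from a chain of each kind. Col6a1 was at 1.83, 1.88 and 1.08 in the 3 replicates (1.60 ± 0.45, SD, n = 3, a 3.03-fold difference, adjusted p 0.0208). Col6a2 was at 1.20, 1.38 and 0.95 (1.17 ± 0.22, 2.26-fold, adjusted p 0.0144). Replicate 3 was the lowest for both chains, and every value lay well above 0. Col6a3, the largest chain, was at -0.17, -0.13 and -0.07 (-0.12 ± 0.05, adjusted p 0.164), and its other probe at 0.02, 0.03 and -0.09. The Col6a1 ratio exceeded that of Col6a3 by 2.00, 2.01 and 1.15 in the 3 replicates (1.72 ± 0.49), and the Col6a2 ratio by 1.30 ± 0.25. The chains that rose and the chain that did not pass did not overlap in any replicate, and the difference between chains was not tested.

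Col6a2 and Col6a1 are neighbours on chromosome 10 in the RefSeq table of assembly GRCm38.p6. The windows from 250 bases before to 50 bases after their starts are shown because the genes rose together; they are RefSeq sequences of build GRCm38.p6, chr10:76725995-76726294 and chr10:76623581-76623880, both on the minus strand. Capitals mark the letters GGGCGG (GC box) and TGANTCA (AP-1 site), each searched on both strands, and the letters of CCAAT and TATAAA were searched too. The Col6a1 window held 1 AP-1 site, and that of Col6a2 held 1 GC box. No letters of CCAAT or TATAAA stood in either window. For Col6a2 the table holds 2 starts, and the upstream of them is shown.
Col6a1: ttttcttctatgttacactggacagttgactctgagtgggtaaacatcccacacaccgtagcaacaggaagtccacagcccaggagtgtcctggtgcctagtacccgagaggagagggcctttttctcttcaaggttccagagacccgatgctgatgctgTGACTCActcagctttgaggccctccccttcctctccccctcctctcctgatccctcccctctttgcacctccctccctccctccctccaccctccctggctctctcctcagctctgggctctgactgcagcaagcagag
Col6a2: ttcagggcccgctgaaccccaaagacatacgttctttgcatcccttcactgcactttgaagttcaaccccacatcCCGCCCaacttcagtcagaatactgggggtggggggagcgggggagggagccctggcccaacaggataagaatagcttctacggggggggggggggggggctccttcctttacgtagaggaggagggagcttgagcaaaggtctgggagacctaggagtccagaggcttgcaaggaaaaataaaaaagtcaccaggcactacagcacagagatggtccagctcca

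Col1a2, a chain of type I collagen, the main fibril of the dermis, was at 1.11, 1.05 and 0.89 in the 3 replicates. Its mean was 1.02 ± 0.11 (SD, n = 3), or 2.03-fold (adjusted p 0.0103), and its replicates were close together. Col1a1, the other chain of the same protein, was at 0.32, 0.17 and 0.06 (0.19 ± 0.13, adjusted p 0.155) and did not pass. The Col1a2 ratio was above that of Col1a1 by 0.79, 0.88 and 0.83 (0.84 ± 0.04), so the gap was nearly the same in every replicate. In the ratios deposited with the arrays, Col1a1 was at 0.50 ± 0.19 and passed with an adjusted p of 0.0426, and the gap to Col1a2 was 0.70 ± 0.12.

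Type V collagen regulates the thickness of type I fibrils, and both of its chains among the members rose. Col5a2 was at 0.57, 0.68 and 0.67 (0.64 ± 0.06, 1.56-fold, adjusted p 0.0132). Col5a1 was at 0.52, 0.45 and 0.30 (0.42 ± 0.11, 1.34-fold, adjusted p 0.0294). The ratio of Col5a2 was the higher of both in every replicate, by 0.05, 0.22 and 0.37. After scaling between arrays the adjusted p of Col5a1 was 0.0526. Col5a3, a further type V chain outside the members, was at 0.14, 0.22 and 0.60 (0.32 ± 0.24) and did not pass, with an adjusted p of 0.133. Col3a1, the chain of type III collagen and the neighbour of Col5a2 on chromosome 1, was at 0.10, -0.02 and -0.02 (0.02 ± 0.07, adjusted p 0.833). The ratio of Col5a2 exceeded that of Col3a1 by 0.62 ± 0.13.

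Col12a1 encodes type XII collagen, which binds to the surface of fibrils. Its brightest probe was at 0.84, 1.30 and 0.49 in the 3 replicates (0.88 ± 0.41, 1.84-fold, adjusted p 0.0455). The other probe was at -0.06, -0.13 and -0.04, so the probes of this gene disagreed in sign. The mean over both probes was 0.40 with an adjusted p of 0.0545, and the rise rests on the brightest probe alone. After scaling between arrays its adjusted p was 0.0589.

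Col16a1 was the only interstitial collagen that fell. This chain of type XVI collagen, which lies at the surface of fibrils near the dermal junction, was at -1.04, -1.13 and -0.94 (-1.04 ± 0.10, SD, n = 3). CD34- cells were thus 2.05-fold higher, with an adjusted p of 0.00895, and the 3 replicates were close together. Col8a1, of the short-chain type VIII collagen, was at -0.16, -0.35 and -0.14 (-0.22 ± 0.12) and did not pass, with an adjusted p of 0.101.

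Basement membrane genes rose in 7 of 16 cases (43.8%) and fell in 0. Among all features 5.42% rose and 6.64% fell, so the rises lay above the background, while 0 falls in 16 genes lay near it. The other 9 did not pass. The group median was 0.07, with replicate medians of 0.20, 0.10 and 0.15. Heparan sulfate carriers, the anchoring fibril chain and a pair of type IV chains were among the rising genes, while most laminin chains and both nidogens lay near 0.

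Col18a1 had the highest mean ratio of the members with the offset of 50, though Fbln1 was above it in replicate 1 and Col6a1 in the deposited ratios. It encodes type XVIII collagen, a heparan sulfate proteoglycan of basement membranes whose end is released as endostatin. Its values were 1.92, 2.46 and 1.61, and each replicate alone lay above the mean of every other basement membrane gene. The mean was 2.00 ± 0.43 (SD, n = 3), or 3.99-fold (adjusted p 0.0154). It held rank 58 from the top among the 20068 features.

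Hspg2 encodes perlecan, the large heparan sulfate proteoglycan of basement membranes. Its brightest probe was at 0.64, 0.80 and 0.51 (0.65 ± 0.15, 1.57-fold, adjusted p 0.0200). Its other probes were at 0.11 ± 0.04 and 0.04 ± 0.07, both lower than the brightest in every replicate. The mean over the 3 probes was 0.27 with an adjusted p of 0.0419, so the size of the rise depends on the probe. Agrn, which encodes agrin, another heparan sulfate proteoglycan, ranged from -0.13 to 0.22 over the replicates and did not pass.

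Type IV collagen chains are encoded in pairs of genes that lie head to head. Col4a1, of the chain pair found in nearly all basement membranes, was at 0.55, 0.80 and 0.51 (0.62 ± 0.16, 1.54-fold, adjusted p 0.0225). Col4a2, its partner chain, was at 0.65, 0.61 and 0.33 (0.53 ± 0.17, 1.44-fold, adjusted p 0.0309). The ratios of these partners differed by -0.10, 0.19 and 0.18, with no common sign. Col4a6 was at -0.21, -0.32 and -0.18 (-0.23 ± 0.07, adjusted p 0.0606), and Col4a5 at -0.11, -0.10 and -0.06 (-0.09 ± 0.03, adjusted p 0.241). These chains of the X-linked pair did not pass, and they lay below 0 in every replicate. The Col4a1 ratio was above that of Col4a5 by 0.67, 0.90 and 0.57 (0.71 ± 0.17). After scaling between arrays the adjusted p of Col4a2 was 0.0543. The call of Col4a1 ended with CD34+ cells in Cy5 only, at 0.49 with an adjusted p of 0.0872, and its arrays of replicate 3 gave 0.91 and 0.10.

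The start windows of both pairs are shown because both genes of the pair on chromosome 8 rose and neither of the X-linked pair passed. The difference between the pairs was not tested. They are RefSeq sequences of build GRCm38.p6, with Col4a1 at chr8:11312777-11313076 on the minus strand and Col4a2 at chr8:11312555-11312854 on the plus strand. Col4a6 lies at chrX:141474027-141474326 on the minus strand and Col4a5 at chrX:141475169-141475468 on the plus strand. In that table the starts of Col4a1 and Col4a2 lie 21 bases apart and their windows share 78 bases, whereas the starts of Col4a6 and Col4a5 lie 1343 bases apart. Capitals mark GGGCGG and CCAAT on either strand, which do not overlap each other here. The Col4a1 window held 1 GC box and 1 CCAAT box, and that of Col4a2 held 3 and 1. In the shared bases stands 1 GC box. The windows of Col4a6 and Col4a5 held 1 GC box each, and Col4a5 alone of this pair held a CCAAT box.
Col4a1: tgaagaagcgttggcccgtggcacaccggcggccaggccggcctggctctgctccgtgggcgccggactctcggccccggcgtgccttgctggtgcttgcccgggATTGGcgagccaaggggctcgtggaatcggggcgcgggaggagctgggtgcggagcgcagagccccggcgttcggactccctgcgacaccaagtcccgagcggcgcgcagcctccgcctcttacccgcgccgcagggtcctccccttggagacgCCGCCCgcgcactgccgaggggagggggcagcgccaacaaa
Col4a2: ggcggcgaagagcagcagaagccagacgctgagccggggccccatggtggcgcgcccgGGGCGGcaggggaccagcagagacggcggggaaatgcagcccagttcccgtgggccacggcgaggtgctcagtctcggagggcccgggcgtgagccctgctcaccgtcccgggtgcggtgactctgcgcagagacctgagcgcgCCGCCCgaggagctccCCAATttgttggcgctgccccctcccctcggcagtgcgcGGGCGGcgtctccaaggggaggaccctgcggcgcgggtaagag
Col4a6: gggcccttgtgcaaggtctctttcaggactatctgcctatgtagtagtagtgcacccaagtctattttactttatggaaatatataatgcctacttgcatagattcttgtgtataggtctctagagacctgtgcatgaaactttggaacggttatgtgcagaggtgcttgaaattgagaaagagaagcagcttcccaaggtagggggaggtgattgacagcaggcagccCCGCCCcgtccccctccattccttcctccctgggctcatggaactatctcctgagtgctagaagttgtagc
Col4a5: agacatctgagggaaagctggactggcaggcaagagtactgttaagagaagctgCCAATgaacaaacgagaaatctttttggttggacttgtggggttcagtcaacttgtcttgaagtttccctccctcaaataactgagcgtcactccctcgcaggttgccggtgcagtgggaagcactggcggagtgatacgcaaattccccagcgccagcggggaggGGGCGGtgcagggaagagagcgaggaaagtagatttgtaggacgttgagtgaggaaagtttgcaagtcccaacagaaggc

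Start windows were found for 32 of the 45 members, 40 windows in all. GGGCGG stood in 75% of these windows and in 35.7% of all 32851 windows of the table. The CCAAT letters stood in 32.5% against 37.4%, TATAAA in 5% against 13.6%, and TGANTCA in 5% against 7.81%. By gene, a GC box stood in a window of 13 of 14 rising members and of 10 of 15 that did not pass or were not tested. Over all members with a window, falling ones included, it stood in 26 of 32, so it was not particular to rising members. These are matches of letters in a window and describe no binding.

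Col7a1 encodes the chain of the anchoring fibrils that tie the epidermal basement membrane to the dermis. It was at 0.70, 1.12 and 0.83 (0.88 ± 0.21, 1.84-fold, adjusted p 0.0198). With median centring in place of loess its ratio was 0.59 with an adjusted p of 0.0288. Egfl6, a secreted protein with EGF repeats that binds integrins, was at 1.63, 1.67 and 0.63 (1.31 ± 0.59, 2.48-fold, adjusted p 0.0420). Replicate 3 stood apart from the others for Egfl6, and its adjusted p was 0.0657 after scaling between arrays.

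Lama5 was the only measured laminin chain among the members that rose. It encodes the alpha-5 chain, which is joined with a beta and a gamma chain in laminins of the epidermal basement membrane. Its values were 0.46, 0.40 and 0.40 (0.42 ± 0.04, 1.34-fold, adjusted p 0.0193), a small difference with a narrow spread. Lamc1, the gamma-1 chain, was at -0.06, -0.06 and -0.13 (-0.08 ± 0.04, adjusted p 0.302). Lamb2, the beta-2 chain, was at -0.04, -0.12 and -0.003 (-0.05 ± 0.06, adjusted p 0.507). Lamb1, the beta-1 chain, ranged from -0.09 to 0.21. The Lama5 ratio was above that of Lamc1 by 0.53, 0.46 and 0.53 (0.51 ± 0.04) and above that of Lamb1 by 0.25, 0.49 and 0.39.

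The remaining basement membrane members were Nid1 and Nid2, the nidogens that link laminin to type IV collagen, and Npnt, which encodes nephronectin, a ligand of the alpha-8 integrin. Npnt was at 0.19, 0.15 and -0.06 (0.09 ± 0.13, adjusted p 0.419). The means of Nid1 and Nid2 were -0.01 and 0.05, with adjusted p-values of 0.880 and 0.549. Over the 9 basement membrane genes that did not pass, means ranged from -0.23 to 0.09 and 95% intervals from -0.37 to 0.28.

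**Figure D2:**
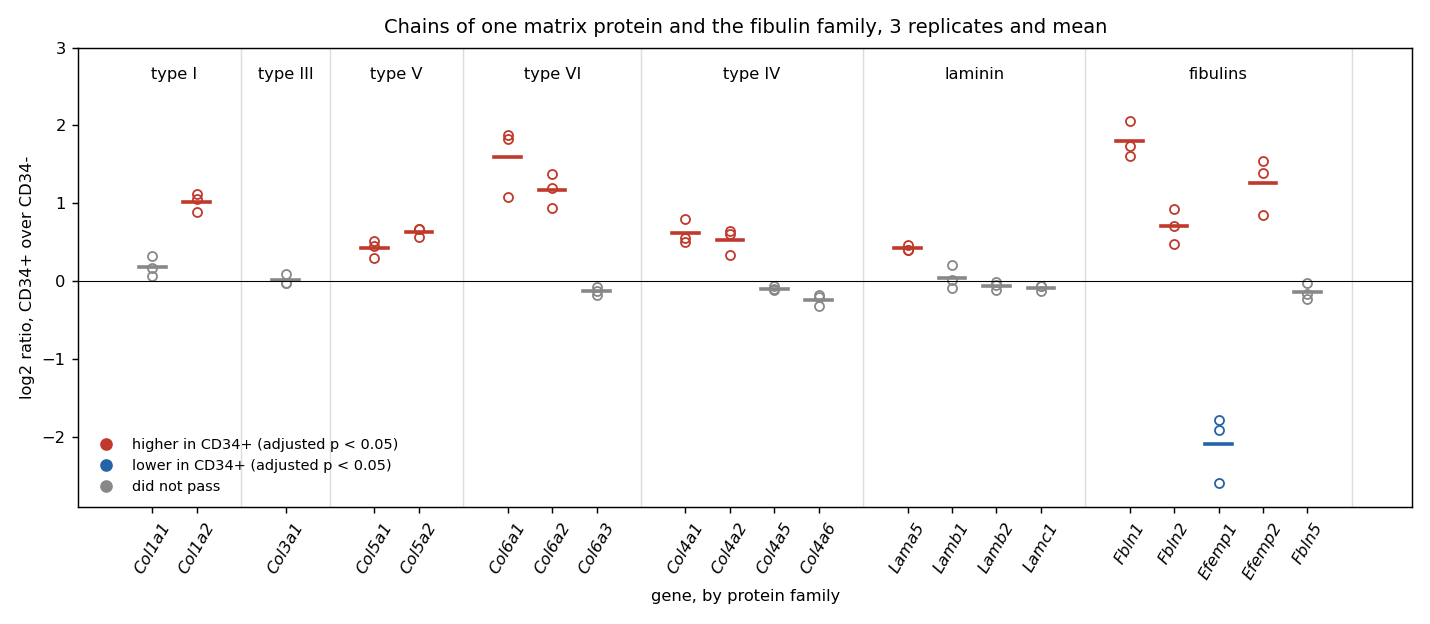
Log2 ratio of CD34+ over CD34- cells (vertical axis) for the chains of collagen types I, III, V, VI and IV, the laminin chains and the fibulin family, with a circle per replicate and a bar at the mean. Col1a2, Col6a1 and Col6a2 lie above their partner chains Col1a1 and Col6a3, Col4a1 and Col4a2 above Col4a5 and Col4a6, and Efemp1 lies below all others.

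Among the fibulins, proteoglycans and other glycoproteins, 3 of 17 tested genes rose (17.6%) and 2 fell (11.8%), and 12 did not pass. Among all features 5.42% rose and 6.64% fell, so the share of falls was closer to the background than the share of rises. The median log2 ratio of the group was 0.06, with replicate medians of -0.01, 0.03 and 0.08. All 3 rising genes and 1 of the falling ones belong to the fibulin family, whose members bind elastic fibres and basement membranes and which had 5 measured genes.

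Fbln1, which encodes fibulin-1, a protein of basement membranes and elastic fibres, was at 2.06, 1.74 and 1.61. The mean was 1.80 ± 0.23 (SD, n = 3), or 3.49-fold (adjusted p 0.00895). Efemp2, or fibulin-4, which is needed for elastic fibre assembly and collagen crosslinking, was at 1.39, 1.55 and 0.86 (1.27 ± 0.36, 2.40-fold, adjusted p 0.0214). In the deposited ratios Efemp2 was at 1.92 ± 0.63 with an adjusted p of 0.0185. Fbln2, or fibulin-2, was at 0.93, 0.71 and 0.48 (0.71 ± 0.22, 1.63-fold, adjusted p 0.0270). Its ratio was 0.45 on the arrays with CD34+ cells in Cy3 and 0.96 on those with CD34+ cells in Cy5, and its adjusted p was 0.0518 after scaling between arrays.

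Efemp1, or fibulin-3, went the other way. Its values were -1.91, -2.58 and -1.78, and no other member fell as far in any replicate. The mean was -2.09 ± 0.43 (SD, n = 3), so that CD34- cells were 4.26-fold higher (adjusted p 0.0151). It held rank 16 from the bottom among the 20068 features. The ratio of Efemp2 exceeded that of Efemp1, its close relative, by 3.30, 4.13 and 2.63 (3.35 ± 0.75). Fbln5, or fibulin-5, was at -0.14 ± 0.10 and did not pass, with an adjusted p of 0.203.

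Pcolce, which encodes an enhancer of the protease that trims procollagen, was at -0.41, -0.41 and -0.26 (-0.36 ± 0.09, adjusted p 0.0318). CD34- cells were 1.28-fold higher. This small fall had adjusted p-values of 0.0534 after scaling between arrays and 0.296 with unpaired channels.

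Of the glycoproteins that did not pass, Mgp had the smallest adjusted p. Mgp encodes matrix Gla protein, an inhibitor of calcification, and was at 0.82, 0.35 and 0.39 (0.52 ± 0.26, adjusted p 0.0583). In the deposited ratios it was at 0.83 ± 0.49 (adjusted p 0.0635). Emilin1, a protein of elastic fibres, was at -0.48, -0.97 and -0.23 (-0.56 ± 0.38, adjusted p 0.0960), below 0 in every replicate with a wide spread. Lum encodes lumican, a small proteoglycan that spaces collagen fibrils, and was at 0.15, 0.29 and 0.58 (0.34 ± 0.22, adjusted p 0.100). Mfap5, a microfibril protein, was at 0.33, 0.20 and 0.06 (0.20 ± 0.14, adjusted p 0.147), and at 0.53 ± 0.44 in the deposited ratios (adjusted p 0.133).

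Dcn encodes decorin, another proteoglycan of collagen fibrils, and is the neighbour of Lum on chromosome 10. It was at -0.01, -0.08 and 0.08, and the ratio of Lum was above it by 0.16, 0.37 and 0.51. The other genes of the group that did not pass were Fn1, Fbln5, Bgn, Vcan, Lox, Loxl1 and Mfap4, with means from -0.15 to 0.15. They encode fibronectin, fibulin-5, biglycan, versican, a pair of collagen-crosslinking oxidases and a microfibril protein. Fn1 was well above background on 2 of 6 arrays in CD34+ cells and on 5 of 6 in CD34- cells, so its ratio of -0.07 ± 0.03 rests on dim spots. Of all 25 members that did not pass, 22 had a 95% interval within 0.5 of 0 on the log2 scale, which bounds differences after the offset used here.

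The dyes were checked because each replicate was hybridised in both orientations. All 19 members that passed had the same sign in both. With CD34+ cells in Cy5 only, the calls of Col12a1, Col4a1 and Pcolce ended, and with CD34+ cells in Cy3 only, those of Col5a1 and Col4a2. Among the 19, the largest gap between the orientations was 0.51, that of Fbln2. Of the 44 tested members, 9 had means of opposite sign in the orientations, and none of these had passed. The test used the average of both orientations, so a gene with opposite signs was unlikely to pass. The shared sign of the 19 is therefore no separate check of the dyes.

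**Figure D3:**
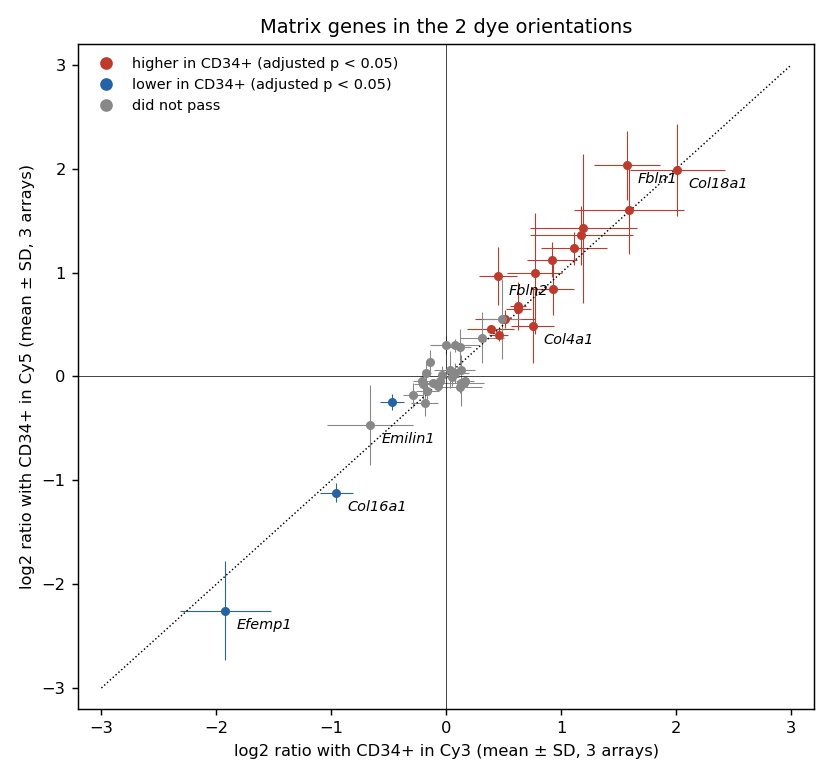
Mean log2 ratio of CD34+ over CD34- cells on the 3 arrays with CD34+ cells in Cy5 (vertical axis) against that on the 3 arrays with CD34+ cells in Cy3 (horizontal axis), with SDs as bars and the line of equality dotted. The 19 genes that passed keep their sign, and Fbln2, at 0.96 and 0.45, is the farthest from the line among them.

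The size of a ratio depends on how background is treated. The main values add an offset of 50 to every background-corrected intensity, which draws dim genes toward 0. In the deposited ratios, which carry no such offset, all 19 members that passed were larger in size, by a factor of 1.02 to 1.52, and all 19 passed with the same sign. Efemp1 was at -2.61 ± 0.64 there, Col6a1 at 2.10 ± 0.57 and Col18a1 at 2.06 ± 0.44. Col6a1 and Col18a1, which were 1.60 and 2.00 with the offset, thus differed by less than the spread between replicates in the deposited ratios.

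**Figure D4:**
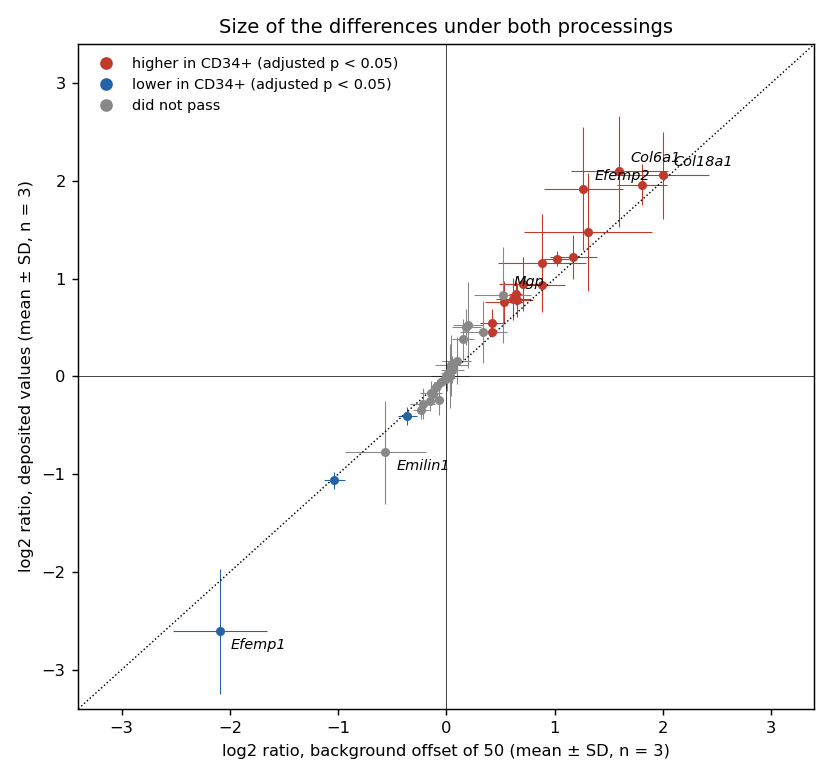
Mean log2 ratio of CD34+ over CD34- cells in the deposited values (vertical axis) against that with a background offset of 50 (horizontal axis) for the 44 tested matrix genes, with SDs over 3 replicates as bars and the line of equality dotted. Points that passed lie on the side of the larger deposited ratio, with Efemp2 the farthest in proportion, at 1.92 against 1.27.

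Other genes of the same pathways were read from lists of related genes. Of 24 further collagens and laminins tested, 2 rose, 1 fell and 21 did not pass, a share of 12.5% close to the 12.1% of all features. Col17a1, the transmembrane collagen of hemidesmosomes, rose by 0.67 ± 0.14 (adjusted p 0.0192). Under median centring it was at 0.46 with an adjusted p of 0.0664. Col15a1, a relative of Col18a1 in basement membranes, rose by 0.65 ± 0.25 (adjusted p 0.0362, and 1.33 in the deposited ratios). Col4a4, a type IV chain best known from kidney, fell by 0.43 on the log2 scale (-0.43 ± 0.18, adjusted p 0.0480). Its call ended in 8 of the 15 alternatives described below, among them the deposited ratios (adjusted p 0.0549).

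Of 19 genes for collagen processing and crosslinking, 5 rose and 1 fell, a share of 31.6%, and their median was 0.01. Pcolce2, the relative of Pcolce that also enhances procollagen trimming, rose by 2.39 ± 0.35 (2.42, 2.72 and 2.02, adjusted p 0.0103), while Pcolce itself fell. Fkbp10, a collagen chaperone of the endoplasmic reticulum, rose by 1.65 ± 0.46 (adjusted p 0.0207), and by 2.65 in the deposited ratios. Bmp1, the protease that Pcolce enhances, fell, at -0.32 ± 0.07 (adjusted p 0.0322). The prolyl and lysyl hydroxylases P4ha1, P4ha2, Plod1, Plod2 and Plod3 did not pass, with means from -0.19 to -0.0004. Of the prolyl 3-hydroxylase family, P3h3 rose by 0.25 ± 0.05 (adjusted p 0.0449, and 0.0685 after scaling between arrays). P3h1, at 0.08 ± 0.04, did not pass.

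Of 34 other glycoproteins and proteoglycans, 6 rose and 3 fell, a share of 26.5%, with a median of -0.0006. Ecm1, a glycoprotein of the skin matrix that binds perlecan, rose by 2.31 ± 0.38 (adjusted p 0.0117), and Spon2, a secreted F-spondin relative, by 0.96 ± 0.20 (adjusted p 0.0177). Tnxb, which encodes the collagen-binding tenascin-X, was at -1.52, -1.74 and -0.80 (-1.35 ± 0.49, adjusted p 0.0297). Smoc2, a calcium-binding matricellular protein, fell by 0.96 on the log2 scale (-0.96 ± 0.07, adjusted p 0.00890). Of 10 matrix receptors outside the integrins, 3 rose and 0 fell, a share of 30%, with a median of -0.07. Ddr1, a collagen-binding receptor kinase of epithelia, rose by 1.08 ± 0.35 (adjusted p 0.0262), and the syndecan Sdc1 by 0.72 ± 0.19 (adjusted p 0.0213). Ddr2, its relative in mesenchymal cells, was at -0.21 ± 0.03 and did not pass (adjusted p 0.0548), but it was at -0.65 in the deposited ratios and passed there with an adjusted p of 0.0153.

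Markers of other cell types were read beside these genes. Among all features, 5.42% passed as higher and 6.64% as lower, and in lists this short 1 gene is a large share. Of 16 tested fibroblast markers 3 rose (18.8%) and 1 fell (6.25%). Their summed signal ranged from 6483 to 10563 in CD34+ cells and from 4441 to 5762 in CD34- cells, in intensity units without offset. Fstl1 rose by 1.92 ± 0.23 (adjusted p 0.00863), Mmp2 by 1.27 ± 0.37 and Cxcl12 by 0.46 ± 0.08 (0.29 with CD34+ cells in Cy3 only), and Dpp4 fell, at -0.45 ± 0.14 (-0.93 in the deposited ratios). The receptors Pdgfra and Pdgfrb were at 0.07 ± 0.02 and -0.10 ± 0.10, the transcription factors Twist1, Twist2 and Prrx1 at 0.01, 0.07 and 0.04, and none of these 5 passed. Over all 12 fibroblast markers that did not pass, means ranged from -0.14 to 0.45. The highest was Dlk1, at 0.54, 0.59 and 0.22 (0.45 ± 0.20, adjusted p 0.0503), which passed in 7 of the 15 alternatives described below. Vim varied most, at 0.82, -0.38 and 0.16. Of 12 endothelial markers 1 rose (8.33%), Egfl7 at 0.44 ± 0.08, and Pecam1 and Cdh5 were at -0.002 and -0.06. The summed signals of this list ranged from 1778 to 2778 in CD34+ cells and from 1664 to 2384 in CD34- cells. Of 10 pericyte and smooth muscle markers 1 rose (10%), Cspg4 at 0.91 ± 0.20, and 0 fell. The 9 that did not pass had means from -0.90 to 0.38, and the median of the list was -0.05. Its sums ranged from 4272 to 7894 in CD34+ cells and from 5445 to 11182 in CD34- cells. Sums are given as ranges over replicates, so they do not compare the populations within a replicate. Each marker was well above background on at least 1 array, but 93.0% to 97.7% of all probes carried that mark on an array. The mark therefore says little about whether a marker was expressed. What part such cells have in the collagen ratios was not tested.

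For the labelled cell type, all 9 tested keratinocyte markers were well above background on all 6 arrays in both populations. On an array, 93.0% to 97.7% of all probes carried that mark, so it says little here as well. Against 5.42% and 6.64% of all features, 1 of them was higher (11.1%), 2 were lower (22.2%) and 6 did not pass. Their summed signal was 79863 to 87736 in CD34+ and 92819 to 123500 in CD34- cells. Krt14, the keratin of basal keratinocytes, was lower in CD34+ cells, at -1.11 ± 0.41 (adjusted p 0.0307), and Itgb4, the partner of the alpha-6 integrin, was higher at 0.38 ± 0.09 (adjusted p 0.0295), but at 0.15 with an adjusted p of 0.522 under median centring. Dsp, a desmosomal plaque protein, was lower at -0.41 ± 0.16 (adjusted p 0.0414, and -0.75 in the deposited ratios), and Sfn, a 14-3-3 protein of epithelia, was at -1.25 ± 0.78 and did not pass (adjusted p 0.0782). Of 6 melanocyte markers 2 rose (33.3%), with sums of 806 to 1430 and 487 to 1064. Of 8 leukocyte markers 1 fell (12.5%), with sums of 2750 to 3678 and 2452 to 3519.

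**Figure D5:**
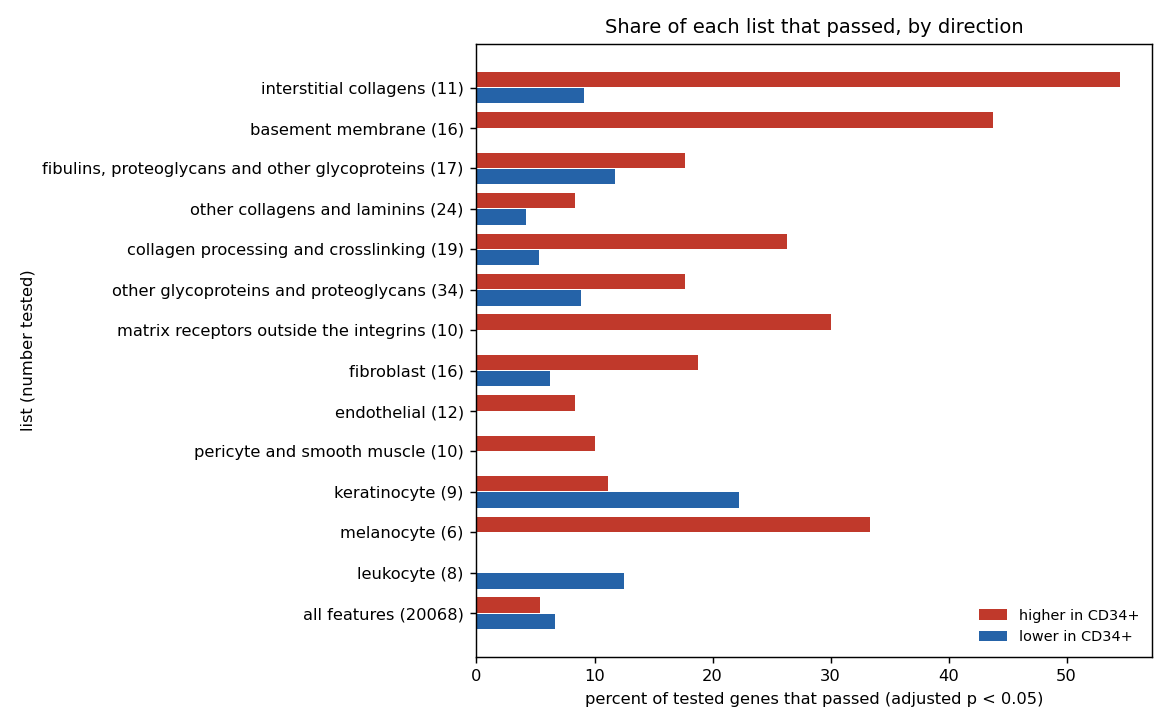
Percent of the tested genes of each list that passed as higher (red) or lower (blue) in CD34+ cells, with the number tested in brackets and all features in the lowest row. Interstitial collagens reach 54.5% and basement membrane genes 43.8% as higher, against 5.42% of all features.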

How the data were processed

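On 6 arrays of 2 colours, CD34+ and CD34- keratinocytes of 3 replicates were compared; 2 arrays without a replicate number were taken as replicate 3. The deposited intensity of each spot and its background came from Agilent Feature Extraction, per the file headers (version A.6.1.1 on 2 arrays and A.7.5.1 on 4). The deposited log10 ratios came from background-subtracted, dye-normalised signals, per the file headers, and the deposited value table equals their negative, with column medians of 0, 0.00257, 0.00274, 0, 0.00187 and 0. Genome coordinates were not used to name probes: 8947 of 20868 probes were named by RefSeq accession (GRCm38.p6), 43 by hand, 371 through a symbol and 366 through a synonym that the description holds. The other 11141 were unnamed. Among members that passed, the probes used for Col6a2, Col12a1, Col16a1, Col4a1, Col4a2 and Efemp1 were named by hand from their descriptions.

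In limma 3.58.1 (R 4.3.3), background was corrected by normexp with an offset of 50 and arrays were normalised by loess. Signs were turned to CD34+ over CD34-. Spots, then the 2 arrays of a replicate, were averaged. A probe was kept where either population exceeded background clearly (the scanner software's mark) in 2 or more of the 3 replicates, which left out 472 dim probes and 182 more with outlier spots. The brightest probe represented a gene. Ratios were tested against 0, and the procedure was tested on simulated data. Whether replicates came from separate animals is not given in the sources used here, so p-values measure the spread between these samples. Both populations of a replicate share arrays by the labels, and their deviations correlated with r of 0.82, 0.75 and 0.83. Members, lists and tests were chosen with earlier results of these data known. All members were accounted for; of those that did not pass, up to 4 per group with the smallest adjusted p were given by replicate, with Lamb2 and Dcn added as partners of other members, and from each list of related genes up to 2 rises and 2 falls of the largest size; other genes of these lists were named after their values were seen.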

Additional observations from a re-analysis of the deposited data

How the results depend on the processing

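Each result was recomputed under 15 alternatives. All 19 members that passed kept their sign in all of them, and no called value changed sign. With all replicates kept, 11 to 18 members passed as higher, except 5 with unpaired channels and no replicate block, and 2 to 5 as lower. Leaving out a replicate gave 0 to 17 as higher and 0 to 5 as lower, and 0 to 4230 of all features, against 2420 with all. With 6 arrays and a dye term, 5 members passed as lower and 4261 features passed; a batch term for the software version gave 4761 features; the fit without the replicate block gave 548 features. The deposited ratios, an offset of 0, no filter on dim probes and outlier spots kept each kept all 19 calls. Scaling between arrays kept 13 of them, CD34+ in Cy5 only 16 and CD34+ in Cy3 only 17. Members called in some alternatives only were Col1a1, Mgp, Loxl1, Col8a1, Lum, Emilin1 and Col4a6. The cause of these shifts was not tested. Signal over background limits Dpt and Fn1, and the offset draws dim genes toward 0.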

Other observations

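Sparc, which encodes a collagen-binding glycoprotein also known as osteonectin, was left out of the test because its spot carried an outlier mark on 1 array of replicate 3. It was at 2.32 and 2.53 in replicates 1 and 2 and at 1.83 on the other array of replicate 3. With the marked spots kept, its log2 ratio was 2.21 with an adjusted p of 0.0138 in limma. Aspn, which encodes asporin, a small proteoglycan related to decorin, was at 1.90, 0.84 and 0.87 (1.20 ± 0.60, SD, n = 3) and did not pass, with an adjusted p of 0.0518. It passed in 7 of the 15 alternatives, among them the deposited ratios, at 1.65 with an adjusted p of 0.0309. Serpinh1, the collagen chaperone HSP47, was at 1.58 ± 0.47 (SD, n = 3) and passed with an adjusted p of 0.0221. All 3 were chosen after their values were seen.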
